A study of Mus musculus with 6 samples.

Results

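The 10 cardiac sarcomere genes Actc1, Myl7, Myl4, Myl2, Tnnt2, Tnni1, Tnni3, Myh6, Myh7 and Ttn were followed in ribosome-associated RNA of neonatal mouse kidney. They were taken by symbol from a deposited table of 48587 gene rows, and all 10 had a row. The members were chosen by their measured levels: several were abundant in these kidney libraries while others stayed low. The levels are therefore given as a description and without a test.

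The libraries were anti-HA pulldowns from kidney homogenates of animals carrying RiboTag, which adds an HA tag to ribosomes of cells where Cre has acted. In every animal Cre was driven by Cdh16, whose product is a cadherin of the tubule epithelium. The 3 control libraries came from littermates with 1 floxed and 1 wild-type Foxp1 allele (Cdh16Cre;Foxp1fl/+;RiboTag), so that the controls can lose 1 Foxp1 copy in cells with Cre. The 3 Foxp1-deficient libraries came from Cdh16Cre;Foxp1fl/fl;RiboTag animals. Treatment is labelled as vehicle in the controls and as chronic acid load in the Foxp1-deficient group, a load that the protocols do not mention, so genotype and treatment cannot be told apart. The labels do not say that the libraries of a group came from separate animals, so each p-value measures the spread between libraries only, and that spread may be technical.

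The sarcomere is the contractile unit of striated muscle. Thick filaments of myosin heavy chains with their regulatory and essential light chains pull on thin filaments of actin. Troponin T, troponin I and troponin C sit on the thin filament with tropomyosin and make the pull depend on calcium, while titin spans from the Z disc to the M band. In the mouse heart Myl7 and Myl4 are the light chain genes typical of the atrium, Myl2 is that of the ventricle, Myh6 and Myh7 encode the alpha and beta heavy chains, and Tnni1 is the troponin I gene of the fetal heart and slow skeletal muscle that Tnni3 replaces.

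Libraries held 9710048 to 18958196 counts. Levels are given as CPM, the count divided by the library total and put on a common scale, and the upper limit that a count of 0 allows (3 counts) was 0.158 to 0.309 CPM. That limit covers counting error only. Foxp1, the targeted forkhead transcription factor gene, had 51.4, 26.0 and 40.5 CPM across controls 1 to 3, and 36.3, 9.17 and 33.7 CPM across Foxp1-deficient libraries 1 to 3. The groups overlapped, and these counts can include exons outside the floxed part and cells without Cre. Between libraries of equal number Foxp1 was lower in the Foxp1-deficient one each time, as were 16.1% of genes tested. Its log2 fold change in edgeR was -0.62 (SE 0.49), or -0.72 (SE 0.28) with the library number as a block. Neither passed after adjustment over all genes. Genes defining kidney tubule were low outside the libraries numbered 3: the summed level of 15 tubule genes was 37.0, 69.0 and 566 CPM across controls 1 to 3, and 67.2, 121 and 745 CPM across Foxp1-deficient libraries 1 to 3. The 11 mesothelial genes of the same kind of list summed to between 2745 and 7908 CPM and the 13 smooth muscle genes to between 9330 and 24465 CPM. The cell type is labelled as kidney tubular cells, and the tubule sum was below the mesothelial and smooth muscle sums in every library. The lists hold different genes, some of them expressed by several cell types, so these sums do not rank cell types. In such bulk RNA, fewer cells of a type and less RNA per cell cannot be told apart.

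Promoter sequence is shown here for 3 of the abundant genes, Actc1, Myl7 and Tnnt2, and for the low Myh7, since the results turn on how unlike their levels were. Each is the 250 bases before a RefSeq start site (GRCm38.p6), written 5′ to 3′ on the gene's own strand. Capitals mark matches to the CArG box, the motif bound by serum response factor, and to the MCAT element CATTCC, the motif bound by TEAD factors, on either strand. The stretches are chr2:114052876-114053125 (minus strand) for Actc1, chr11:5898783-5899032 (minus strand) for Myl7, chr1:135836084-135836333 (plus strand) for Tnnt2 and chr14:54994627-54994876 (minus strand) for Myh7. Of the Actc1 stretch 12 bases, and of the Myh7 stretch 8, lie in exons that the deposited annotation gives these genes.
Actc1: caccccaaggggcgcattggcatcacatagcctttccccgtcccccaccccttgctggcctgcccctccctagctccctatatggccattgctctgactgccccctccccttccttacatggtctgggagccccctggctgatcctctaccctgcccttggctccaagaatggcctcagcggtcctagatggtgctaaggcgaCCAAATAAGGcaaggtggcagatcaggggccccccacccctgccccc
Myl7: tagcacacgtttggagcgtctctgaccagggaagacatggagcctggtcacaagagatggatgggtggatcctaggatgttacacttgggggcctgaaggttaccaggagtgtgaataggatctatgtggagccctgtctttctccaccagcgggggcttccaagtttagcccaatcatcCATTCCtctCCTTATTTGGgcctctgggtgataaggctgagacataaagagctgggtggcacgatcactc
Tnnt2: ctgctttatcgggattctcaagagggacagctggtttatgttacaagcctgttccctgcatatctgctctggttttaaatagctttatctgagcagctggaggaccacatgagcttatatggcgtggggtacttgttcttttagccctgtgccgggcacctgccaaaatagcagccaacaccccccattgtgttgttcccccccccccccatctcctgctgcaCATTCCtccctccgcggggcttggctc
Myh7: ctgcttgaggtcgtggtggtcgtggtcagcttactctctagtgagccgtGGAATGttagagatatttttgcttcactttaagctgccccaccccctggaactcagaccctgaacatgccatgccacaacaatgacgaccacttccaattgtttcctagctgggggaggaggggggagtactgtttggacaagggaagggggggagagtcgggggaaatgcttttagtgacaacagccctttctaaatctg

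All 10 genes matched RefSeq windows of 300 bases (250 before to 50 after a start site), 14 windows in all. A CArG box was found in 2 of the 14 windows, those of Actc1 and Myl7, starting 47 and 61 bases before the start site. It was present in 1.63% of all 32851 windows. CATTCC was found in 5 of the 14 windows, 1 each of Myl7, Tnnt2, Myh6, Myh7 and Ttn, against 14.7% of all windows, so the abundant and the low genes both had it. Of the other motifs searched on both strands, the MEF2 motif was in Ttn (3.19% of all windows), AGATAA in Myl2 and Tnnt2 (11.2%), and TATAAA in Actc1, Myl2 and Myh6 (13.6%). The TATAAA matches started 33 bases after the start site in Actc1, 1 base after it in Myh6 and 216 bases before it in Myl2. No 2 of these matches overlapped in a window of the 10 genes. The windows of Tnni1, also an abundant gene, and of Myl4 and Tnni3 held no match to any of these motifs. A match is a run of letters in the window and not a measured binding site. Counted from the 5′ end of the gene in the deposited table, the RefSeq starts of Myl2 lay at -8227 and -7762 bases (upstream) and those of Tnni1 at 19987 and 20077 bases, of Tnni3 at 1701, of Actc1 at 673, of Myh6 at 320 and 1 of Tnnt2 at 635 bases (inside the gene). These windows may not belong to the transcripts counted.

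Of the 10 genes, 4 carried almost all of the signal. Myl7, Actc1, Tnnt2 and Tnni1 together made up between 93.6% and 98.6% of the counts of the 10 genes in each library. The 10 genes took 0.232%, 0.666% and 0.153% of all counts across controls 1 to 3, and 0.169%, 0.379% and 0.140% across Foxp1-deficient libraries 1 to 3. Myl7 alone accounted for 26.3% to 76.0% of them.

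**Figure D1:**
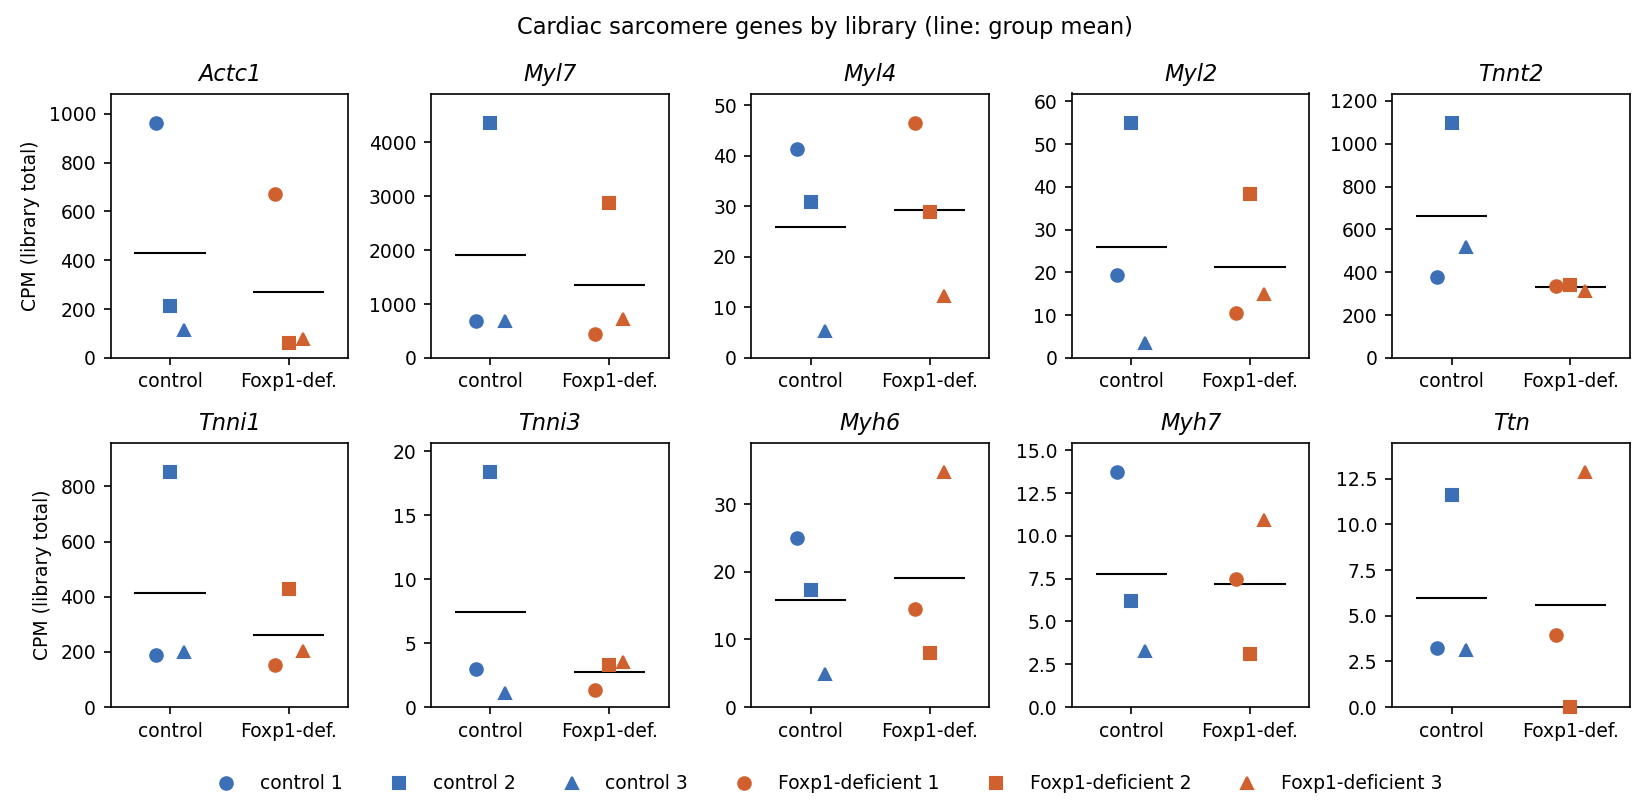
Level of each of the 10 genes in CPM of the library total (vertical axes, linear from 0, different for each gene) in the 3 control and 3 Foxp1-deficient libraries, with the symbol giving the library number and the line the group mean. Actc1 is highest in both libraries numbered 1, Myl7, Myl2 and Tnni1 in both libraries numbered 2, and the Tnnt2 values of 313 to 339 in Foxp1-deficient libraries lie below all 3 controls.

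Levels were compared between genes per length, as TPM, counts divided by the merged exon length of the deposited table and scaled to the same total in each library. Myl7 came first, with a mean of 4153 TPM over the 6 libraries and a range of 2034 to 9408 that lay above every other gene of the set. Actc1 (39.9 to 1382 TPM), Tnni1 (115 to 301) and Tnnt2 (45.9 to 180) followed, and their ranges overlapped, so that their order is not fixed beyond the spread. Myl2 (4.01 to 35.9 TPM), Myl4 (2.62 to 27.0), Myh6 (1.31 to 13.7), Tnni3 (1.20 to 11.3) and Myh7 (0.378 to 3.71) formed an overlapping lower series. Ttn, with at most 0.275 TPM, was below all of them. The merged length counts every annotated exon, 7752 bases for Tnnt2 and 590 for Myl7, so the TPM of a gene with many annotated exons is understated where a short transcript carries the reads.

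**Figure D2:**
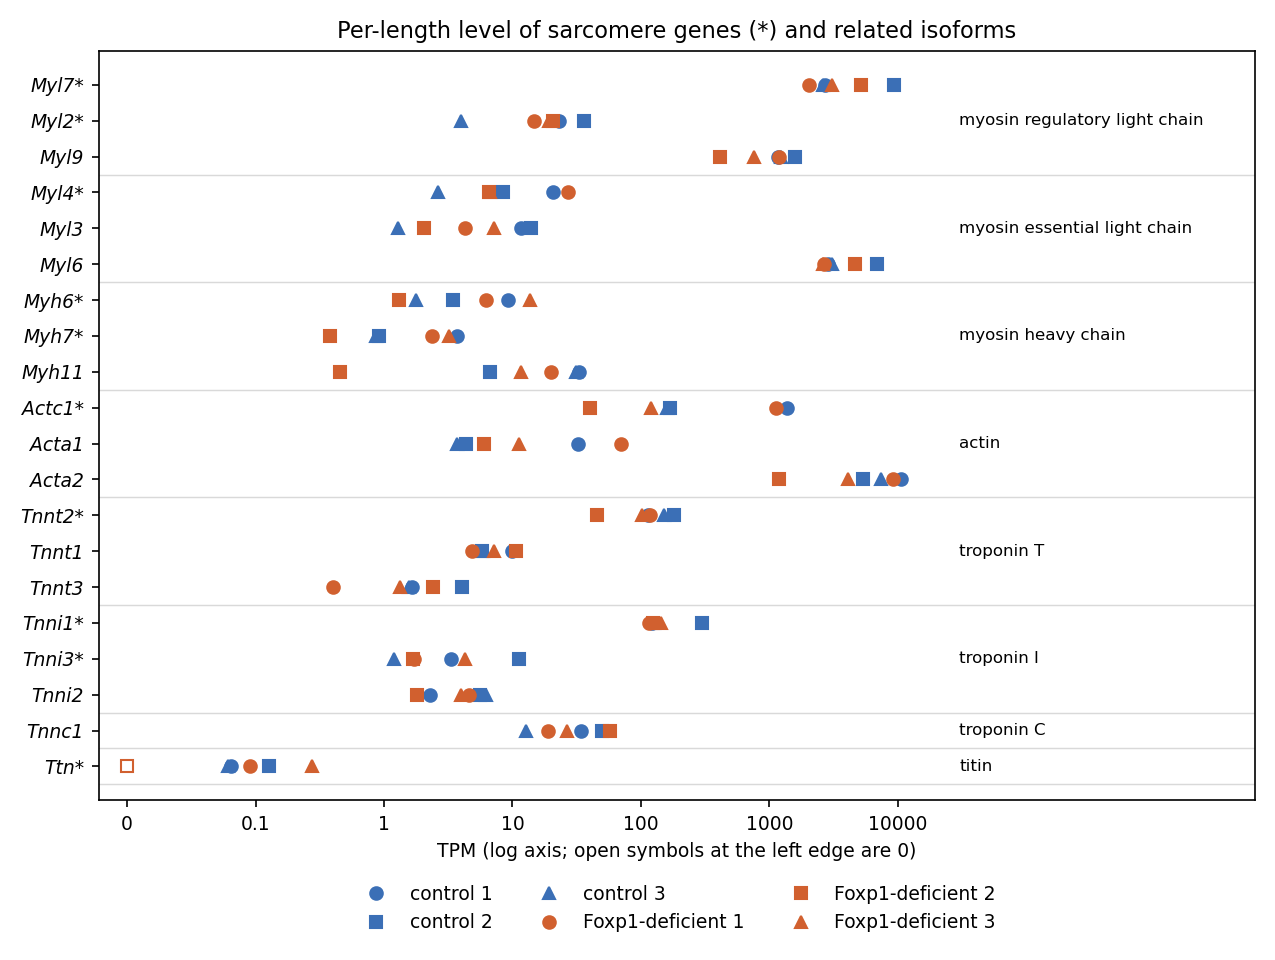
TPM of the sarcomere genes (starred) and of related isoforms, 1 symbol for each library on a log axis, with a value of 0 drawn as an open symbol at the left edge. Myl7 lies at 2034 to 9408 TPM while Myl2 and Myl4 stay at or below 35.9, and Ttn is at 0 in Foxp1-deficient library 2.

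Myl7 (chr11:5896637-5898782, mm10, minus strand, 7 exon blocks) encodes the atrial regulatory light chain. It had 688, 4363 and 680.1 CPM across controls 1 to 3, and 446, 2878 and 719 CPM across Foxp1-deficient libraries 1 to 3. Both libraries numbered 2 were far above the other 4, and the groups overlapped. By TPM it ranked between 5 and 38 among the 48587 rows in each library. Within the regulatory light chain genes measured (Myl7, Myl2, Mylpf, Myl9, Myl12a and Myl12b), Myl7 held 47.8% to 87.9% of TPM, against 7.03% to 27.8% for Myl9, the smooth muscle and non-muscle form.

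Myl2 (chr5:122100951-122113472, plus strand), the ventricular regulatory light chain gene, had 19.4, 55.0 and 3.46 CPM across controls 1 to 3, and 10.6, 38.3 and 15.0 CPM across Foxp1-deficient libraries 1 to 3. The libraries numbered 2 were again the highest in both groups. Myl7 exceeded Myl2 between 117-fold and 650-fold per length within a library. Myl2 exons overlapped 60 bases of Ccdc63 on the other strand, and the counting used no strand option. Fragments that touch exons of both such antisense genes are by default counted for neither.

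Myl4 (chr11:104550663-104595753, plus strand), the atrial essential light chain gene, had 41.3, 30.9 and 5.38 CPM across controls 1 to 3, and 46.5, 28.9 and 12.3 CPM across Foxp1-deficient libraries 1 to 3. Here both libraries numbered 1 were highest and both numbered 3 lowest. Its partner on the same myosin did not follow it in level: Myl7 exceeded Myl4 by 75.4-fold to 1110-fold per length. Among essential light chain genes, Myl6, the non-muscle and smooth muscle form, held at least 98.7% of TPM in each library, and Myl4 at most 0.997%.

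The heavy chain genes were low. Myh6 (chr14:54941981-54966927, minus strand) had 25.1, 17.3 and 4.94 CPM across controls 1 to 3, and 14.6, 7.93 and 34.8 CPM across Foxp1-deficient libraries 1 to 3. Myh7 (chr14:54970688-54994634, minus strand), its neighbour on the chromosome, had 13.7, 6.21 and 3.30 CPM across controls 1 to 3, and 7.49, 3.09 and 10.9 CPM across Foxp1-deficient libraries 1 to 3. In both genes control 3 was the lowest control and Foxp1-deficient library 3 the highest of its group. Myh6 held 67.0% to 81.2% of their joint TPM. The 2 genes are close paralogs, and reads that map to both could be lost, since such reads were not counted. Myh7 exons overlapped the antisense genes Mhrt and Gm29015, by up to 463 bases. Myl7 exceeded Myh6 per length by 222-fold to 3905-fold.

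Actc1 (chr2:114047282-114053548, minus strand, 8 exon blocks) encodes cardiac actin of the thin filament. It had 963, 213 and 115 CPM across controls 1 to 3, and 672, 61.5 and 77.4 CPM across Foxp1-deficient libraries 1 to 3. Both libraries numbered 1 stood well above the other 4, and the highest value was 15.7 times the lowest. Among 4 muscle actin genes, Actc1 held 10.1% and 9.58% of TPM in the libraries numbered 1 and 1.92% to 3.03% in the others, whereas Acta2, the smooth muscle actin gene, held 77.0% to 91.1%. Actg2, also a smooth muscle actin gene, held 5.42% to 12.6% and was above Actc1 in every library. Acta1, the skeletal actin gene, was at most 0.597%. Actin coding sequences are much alike, and reads that map to several genes were not counted, so these shares are uncertain.

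Tnnt2 (chr1:135836354-135852260, plus strand), the cardiac troponin T gene, had 377, 1098 and 519 CPM across controls 1 to 3, and 338, 339 and 313 CPM across Foxp1-deficient libraries 1 to 3. In this scaling the controls were spread more than 2-fold and the Foxp1-deficient libraries lay close together, but scaled by TMM the latter had 321, 419.6 and 272 CPM, and in TPM 117, 45.9 and 101. Tnnt2 held 77.9% to 95.7% of the TPM of the 3 troponin T genes, with Tnnt1, the slow skeletal form, at 3.05% to 18.0%.

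Tnni1 (chr1:135779434-135810989, plus strand) had 189, 852 and 199.7 CPM across controls 1 to 3, and 154, 428 and 205 CPM across Foxp1-deficient libraries 1 to 3. Both libraries numbered 2 were highest and both numbered 1 lowest. Tnni3 (chr7:4518305-4524229, minus strand), the form of the mature heart, had 2.94, 18.4 and 1.10 CPM across controls 1 to 3, and 1.31, 3.30 and 3.53 CPM across Foxp1-deficient libraries 1 to 3. Control 2 stood apart with 207 counts against 20 to 67 in the other 5 libraries. Tnni1 exceeded Tnni3 by 26.6-fold to 104-fold per length and held 94.4% to 97.3% of the TPM of the 3 troponin I genes. Tnni3 exons overlapped 86 bases of Dnaaf3.

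Ttn (chr2:76703980-76982547, minus strand), the titin gene with 345 exon blocks and 116825 merged bases, had 46, 131 and 57 counts across controls 1 to 3, and 66, 0 and 244 counts across Foxp1-deficient libraries 1 to 3. In CPM these were 3.22, 11.6 and 3.13, and 3.92, 0 and 12.9. The count of 0 in Foxp1-deficient library 2 allows up to 0.309 CPM. Ttn exons overlapped the antisense gene Gm13938 by 453 bases.

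Most other genes of the sarcomere and the cardiomyocyte stayed under 10 CPM. Low levels were common in the whole table, where 13885 to 22190 of the 48587 rows had any count in a library. The share of all genes under 10 CPM was not computed, so the counts of low genes here and below describe the lists only. Of 15 other thick filament genes, 12 stayed under 10 CPM in every library, and of 15 other thin filament genes 9 did. Mybpc3, the cardiac myosin binding protein C gene, ranged from 5.44 to 38.3 CPM, and Myl3, the ventricular essential light chain gene, from 1.15 to 22.4. Tnnc1, the only troponin C gene with counts, ranged from 5.88 to 56.8 CPM. The tropomyosin genes Tpm1 (947 to 4834 CPM), Tpm2 (242 to 1570) and Tpm3 (673 to 2058) were abundant, and smooth muscle and non-muscle cells express them too. Acta1 ranged from 2.53 to 39.8 CPM and Actn2, the Z disc actinin gene of the heart, from 0.71 to 6.49. Of 21 other Z disc and M band genes, 14 stayed under 10 CPM in every library, while Ankrd1, a stretch-responsive gene, had 164 to 705 CPM and Obsl1 73.7 to 199.

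Of 27 cardiomyocyte genes outside the sarcomere, most were low. Nppa, encoding the atrial natriuretic peptide, ranged from 0 to 5.36 CPM, Ryr2, the cardiac calcium release channel gene, from 1.48 to 4.38, and Pln, encoding phospholamban, from 0 to 5.60. Ckmt2 and Cox8b had no count in any library. Of these 27 genes, 19 stayed under 10 CPM in every library and 2 were at 0 in all. Their summed level was 1251 to 1486 CPM in controls and 820.4 to 1381 CPM in Foxp1-deficient libraries. It was led by Atp2a2 (111 to 539 CPM), Jph2 (156 to 287), Des (257 to 731) and Cryab (162 to 280), which other cell types also express. The part of cardiomyocyte RNA in the levels of the 10 genes was not tested. Of 16 cardiac transcription factor genes, Nkx2-5 had at most 1.85 CPM, whereas Gata4 had 120 to 251, Gata6 75.8 to 221, Tbx20 17.7 to 116 and Srf 122.6 to 172. Myocd, encoding the serum response factor coactivator myocardin, ranged from 0 to 12.6 CPM. The skeletal muscle regulators Myod1 and Myog were at 0 in 5 of 6 libraries and reached 0.422 and 1.58 CPM in Foxp1-deficient library 3.

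The sarcomere genes did not share 1 pattern over the libraries. Actc1 and Myl4 were highest in both libraries numbered 1, a pattern shown by 16.6% of the 14311 genes tested. Myl7, Myl2 and Tnni1 were highest in both libraries numbered 2, as were 17.1% of genes tested, and none of the 10 was lowest there, as were 44.4% of genes tested. Tnni1 was lowest in both libraries numbered 1 (13.4% of genes tested) and Myl4 in both numbered 3 (3.49%), while no member was highest in both numbered 3 (21%). With 10 members these counts describe the genes and were not tested against the backgrounds. Library number took 95.8% of the variance of log2(CPM + 1) in Myl7, 90.8% in Myl4, 87.9% in Tnni1 and 86.2% in Actc1, against a median of 82.3% over all genes tested. It took 27.7% in Tnnt2, 9.86% in Myh6 and 13.04% in Ttn. Group took 46.8% in Tnnt2 and at most 10.1% in the other 9, with a median of 4.76% over all genes tested. Library number has more levels than group and takes a larger share by chance. Each share is therefore to be read against its own median.

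**Figure D3:**
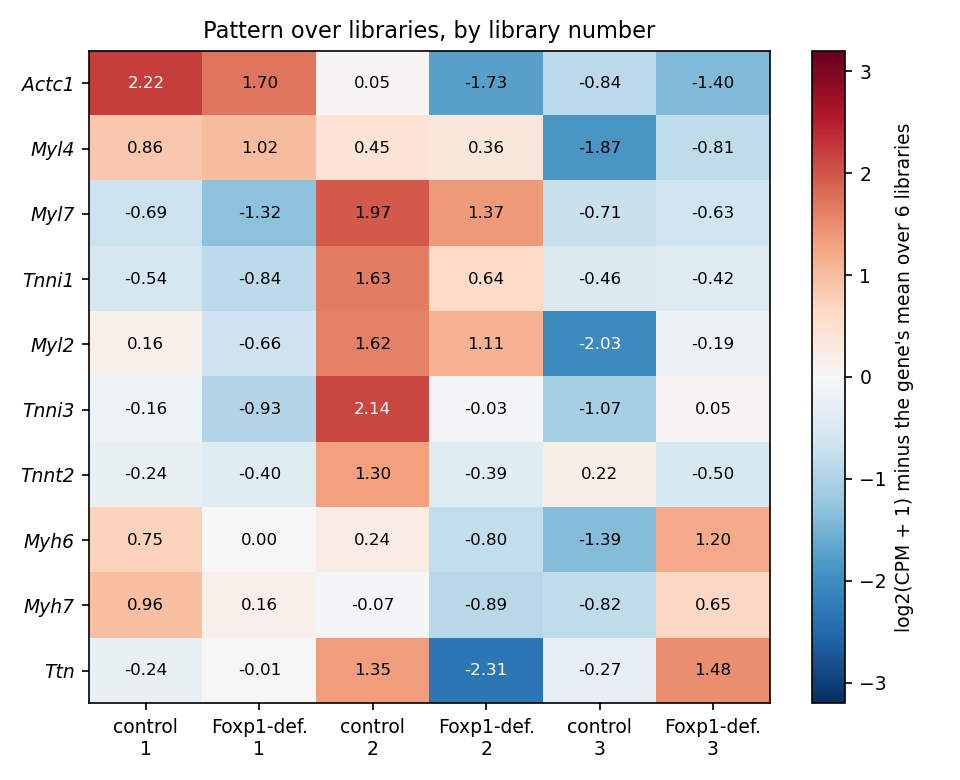
Deviation of log2(CPM + 1) from each gene's mean over the 6 libraries (colour and printed value), with libraries ordered by number. Actc1 is above its mean by 2.22 and 1.70 in the libraries numbered 1, and Myl7 by 1.97 and 1.37 in those numbered 2.

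Within the set, the closest patterns among genes averaging at least 10 CPM were those of Myl7 and Tnni1, with a root mean square difference of 0.41 in log2(CPM + 1) centred on each gene's mean over the 6 libraries. Tnni1 and Tnnt2 differed by 0.57. The gene nearest to each such member was sought by the same measure among 8969 other named genes, also averaging at least 10 CPM. Nearest to Myl7 were Minos1 (0.14), a mitochondrial inner membrane gene, Chchd1 (0.15) and the ribosomal protein gene Rps29 (0.16). Nearest to Tnni1 were Serf1 (0.13), Rpl32 (0.16) and Ift27 (0.16). Nearest to Tnnt2 were Myl9 (0.16) and Des (0.17), encoding the smooth muscle regulatory light chain and desmin, and then Crym (0.18).

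Myh7, averaging 7.46 CPM, was outside the search and differed from Myh6 by 0.36. Among the genes searched, the nearest difference was 0.64 both for Actc1, to the pseudogene Rps10-ps2, and for Myh6, to Prrg3. Set against the spread of the gene itself over the libraries, that was 42.6% of 1 SD for Actc1 and 73.1% for Myh6, where Myl7 (to Minos1) had 11.6% and Myl2 (to Tnnc1) 39.7%. Synpo2l (0.65) and Plce1 (0.66) came next for Myh6. Slc4a1, the band 3 anion exchanger gene of red cells and acid-secreting kidney cells, came second for Actc1 (0.66), followed by Zdhhc2 (0.66). Slc4a1 was at 83.5 CPM in control 1 and 120 CPM in Foxp1-deficient library 1, against a maximum of 8.52 CPM elsewhere. Nearest to Myl4 was Hba-x (0.34), the embryonic alpha-type globin gene, then Rps27a-ps2 (0.55) and Mybpc3 (0.58). Nearest to Myl2 were Tnnc1 (0.47), Hba-a1 (0.52) and the ribosomal RNA row Rn18s-rs5 (0.61). All of these compare 6 libraries and describe likeness only.

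The libraries numbered 2 also differed from the others by gene length. Among genes tested with merged exons under 1 kb, the median of log2(CPM + 1) in library 2 less the mean of libraries 1 and 3 was 0.80 in controls and 0.66 in Foxp1-deficient libraries. For genes of 8 kb and more it was -1.05 and -1.30. Myl7, of 590 bases, was above by 2.67 and 2.34, more than 95.3% and 87.0% of genes under 1 kb. Tnni1, of 3600 bases, was above by 2.13 and 1.27, where the median of its length class (2 to 4 kb) was -0.40 and -0.47, and Actc1, of 1618 bases, was below by 0.64 and 1.88. The part of transcript length in the levels of the libraries numbered 2 was not tested. Without those libraries Myl7 still had 446 to 719 CPM and Actc1, Tnnt2 and Tnni1 at least 77.4 CPM.

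**Figure D4:**
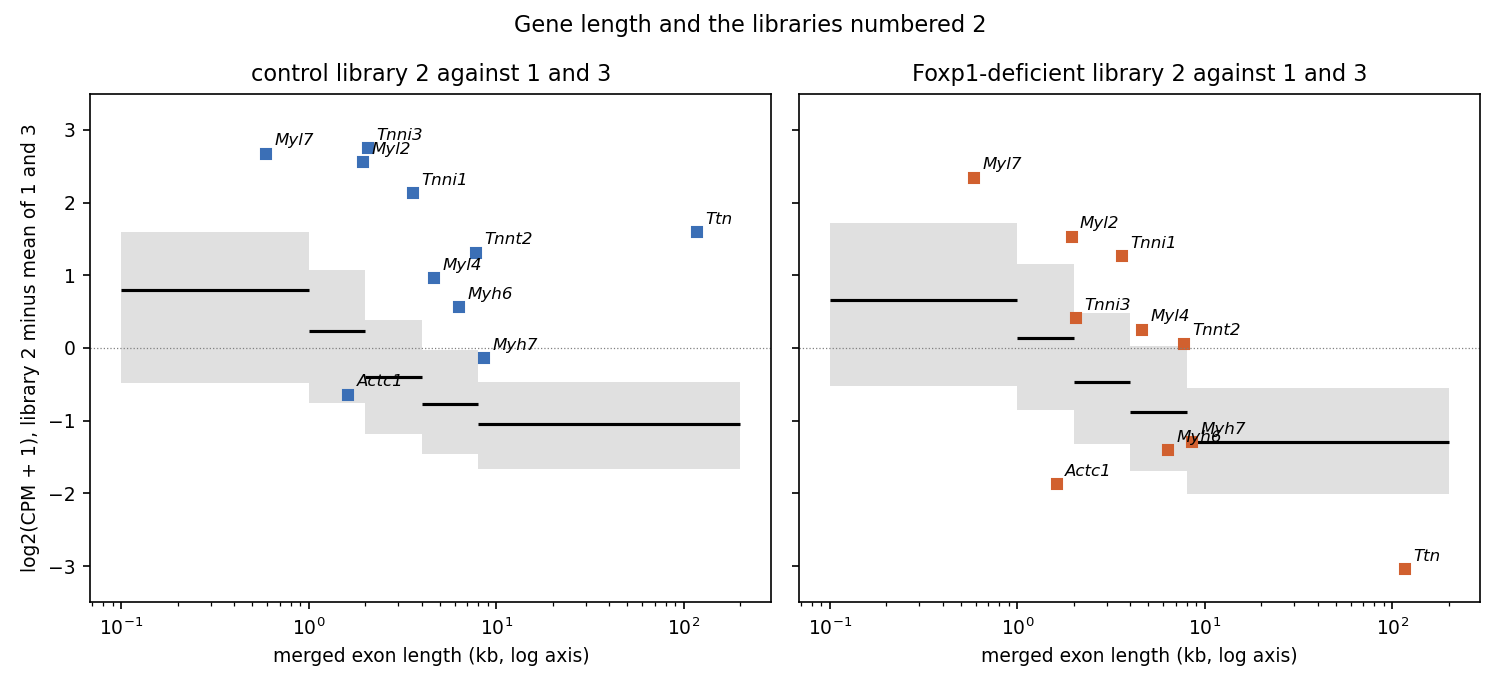
Difference in log2(CPM + 1) between library 2 and the mean of libraries 1 and 3 of the same group (vertical axis) against merged exon length in kb (log axis), with grey boxes for the quartiles and black lines for the medians of all genes tested in 5 length classes. Medians fall from 0.80 to -1.05 in controls and from 0.66 to -1.30 in Foxp1-deficient libraries, and Myl7 (2.67 and 2.34) lies above the upper quartile in both.

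Between the groups, none of the 10 genes passed the test of edgeR's quasi-likelihood fit over all 14311 genes, to which all 10 were admitted. At an adjusted p under 0.05, 0% of all genes passed in either direction, and 103 genes had an unadjusted p under 0.05. DESeq2 called 6 genes and limma-voom with quality weights 0, none of them among the 10, although DESeq2 gave no p for Myl7 and so could call 9 of them. The labels give both groups the numbers 1 to 3, and same-numbered libraries deviated together, so a fit with the number as a block stands beside the plain one. Blocked in this way, edgeR called 0 genes and left 762 with an unadjusted p under 0.05, while DESeq2 called 113 higher and 56 lower and limma-voom 180 and 64. A count of 0 does not show that genes did not change.

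By fold change 8 of the 10 were lower and 2 higher in the Foxp1-deficient group (median log2 fold change -0.43), against 6636 lower and 7675 higher and a median of 0.03 over all genes tested. With the block 7 were lower and 3 higher (median -0.39). The fold change was below 0 in both fits for 7 members (all but Myl4, Myl2 and Myh6), against 43.8% of genes tested. The 8 lower genes share the libraries that set the spread, and their count has no test of its own.

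Tnnt2 was the only member whose groups did not overlap in CPM of the library total, and this direction without overlap was seen in 2.07% of genes tested. In the other direction it was seen in no member and in 2.1% of genes tested. Tnnt2 had 665 ± 382 CPM in the control group against 330.0 ± 14.5 in the Foxp1-deficient group (SD, n = 3 each). Its log2 fold change of -1.06 (SE 0.57) did not pass the test (by edgeR an unadjusted p = 0.104 and a Benjamini-Hochberg adjusted p = 0.9998). The fit with the replicate block gave -0.84 (SE 0.30; by edgeR an unadjusted p = 0.0381 and an adjusted p = 0.853). Scaled by TMM the groups overlapped, since Foxp1-deficient library 2 then had 419.6 CPM against 358 in control 1, and they overlapped in TPM. Without control 2 the log2 fold change was -0.28.

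In all 3 pairs of equal number, Tnnt2 and Actc1 were lower in the Foxp1-deficient member of the pair, as were 16.1% of genes tested. For Tnnt2 the differences of log2(CPM + 1) were -0.16, -1.69 and -0.73 in pairs 1, 2 and 3. For Actc1 they were -0.52, -1.77 and -0.56. No member was higher in all 3 pairs, a pattern of 16.5% of genes tested.

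Actc1 had 429.9 ± 464 CPM in the control group against 270.2 ± 348 in the Foxp1-deficient group (SD, n = 3 each). Its log2 fold change was -0.69 (SE 1.09; by edgeR an unadjusted p = 0.544 and an adjusted p = 0.9998), and was 0.59 without control 1 and -2.58 without Foxp1-deficient library 1, the libraries where Actc1 was highest. The fit with the replicate block gave -0.94 (SE 0.28; by edgeR an unadjusted p = 0.0198 and an adjusted p = 0.853). DESeq2 with the block was the only setting that called a member, Actc1 at an adjusted p = 0.0288, as it called 0.391% of all genes tested lower.

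Myl7 had 1910.1 ± 2124 CPM in the control group against 1348 ± 1333 in the Foxp1-deficient group (SD, n = 3 each), with a log2 fold change of -0.48 (SE 1.12, adjusted p = 0.9998, edgeR quasi-likelihood test), which turned to 1.27 without control 2. Tnni1 had 413 ± 379.8 and 262 ± 146 CPM, with -0.68 (SE 0.85), or 0.66 without control 2. Tnni3 had 7.47 ± 9.49 and 2.71 ± 1.22 CPM, with -1.60 (SE 1.18), or 0.55 without control 2. The Foxp1-deficient libraries moved these values as well: Myl7 was -2.02 without library 2 of that group, -0.046 without its library 1 and -0.12 without its library 3. Tnni1 was -1.48 without Foxp1-deficient library 2 and -0.37 without Foxp1-deficient library 1. Tnni3 was below 0 without any 1 library other than control 2, from -2.13 to -1.25. Without both libraries numbered 2 the means of Myl7 were 684 and 582 CPM, those of Tnni1 194 and 179, and those of Tnni3 2.02 and 2.42, in controls and the Foxp1-deficient group.

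The other members differed by less than the spread between libraries, all at an adjusted p of 0.9998 (edgeR quasi-likelihood test). The log2 fold changes were 0.17 (SE 0.82) for Myl4, -0.30 (SE 1.04) for Myl2, 0.15 (SE 0.72) for Myh6, -0.18 (SE 0.73) for Myh7 and -0.38 (SE 1.46) for Ttn. In pair 3 the Foxp1-deficient library was higher in Myl2, Myh6, Myh7 and Ttn, by 1.84, 2.59, 1.47 and 1.75 in log2(CPM + 1). In pair 2 the differences of the same 4 genes were -0.51, -1.04, -0.82 and -3.66. In pair 1 they were -0.82, -0.74, -0.79 and 0.22, so that pairs 1 and 2 had the same sign for Myl2, Myh6 and Myh7 and pair 3 the opposite one.

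**Figure D5:**
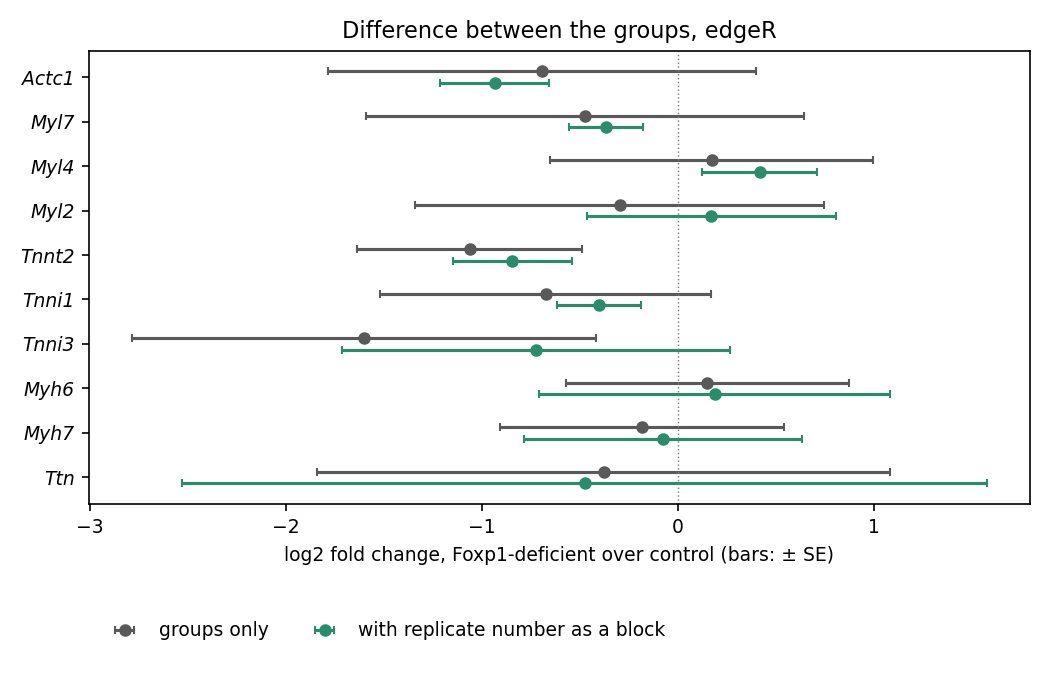
Log2 fold change of each gene, Foxp1-deficient over control, from edgeR without (grey) and with (green) the replicate number as a block, with bars of 1 SE. With the block the SE of Actc1 is 0.28 in place of 1.09 and that of Myl7 0.19 in place of 1.12, and none of the 20 estimates passed after adjustment over all genes.

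The lists of related genes held 0 genes that passed the edgeR test, in any of the 14 lists. Of all 14311 genes tested 6636 were lower in the Foxp1-deficient group, with a median log2 fold change of 0.03. Of 13 smooth muscle genes 12 were lower (median -0.94), among them Myl9 (-1.06) and Des (-0.94). Their summed level was 19921, 24465 and 16407 CPM across controls 1 to 3, and 16068, 9909 and 9330 CPM across Foxp1-deficient libraries 1 to 3, and no list member was at 0 in more than 1 library. The part of this signal in the Tnnt2 values, whose nearest patterns were Myl9 and Des, was not tested. Of 11 tested thin filament genes outside the set 5 were higher and 6 lower, of 6 thick filament genes 2 and 4, and of 13 Z disc and M band genes 5 and 8. Among cardiomyocyte genes outside the sarcomere 11 were higher and 8 lower, with a median of 0.08, and among cardiac transcription factor genes 9 and 5, with a median of 0.11. The tested skeletal muscle genes were higher for 4 and lower for 2, the tubule genes for 7 and 5, and the stromal genes for 5 and 6. Of 10 endothelial genes 3 were higher and 7 lower (median -0.98), and all 12 macrophage genes were lower (median -1.20).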

How the data were processed

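RNA from anti-HA pulldowns of 6 kidney libraries, 3 in each group, was measured. Per the file headers, the authors counted fragments per gene symbol over mm10 exons (annotation version 86) with featureCounts 1.5.1 and its paired option, with neither strand nor multi-mapping options, and the deposited values are raw counts. Fragments that touch exons of several genes are not assigned by default. Per the submitters' processing notes, STAR, Trimmomatic, SAMtools, FastQC, DESeq2 and deepTools were also used, with settings not given in the sources used here. Input libraries were not analysed here.

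CPM use library totals, and TPM use the merged exon length column deposited by the authors. Genes kept by filterByExpr were fitted in edgeR 4.0.16 under R 4.3.3, scaled by TMM, and tested two-sided by quasi-likelihood F with p adjusted by Benjamini-Hochberg and called under 0.05. An SE is the log2 fold change over the root of F. Other tools were DESeq2 1.42.0 and limma 3.58.1. Alternatives were other size factors and low-count filters, DESeq2, limma-voom, the replicate block, and libraries left out.

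Deviations from group means correlated at r = 0.57, 0.53 and 0.62 across genes in same-numbered pairs 1, 2 and 3. Equal numbers were therefore treated as pairs in the pair differences and in the fits with the replicate block. The main fit used group only. The pairing rests on the data since the labels state no pairing.

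The members, gene lists and tests were chosen with earlier results of these data known. Named genes are the members, the 3 nearest patterns of each member averaging at least 10 CPM, up to 4 genes of highest mean CPM per list, and preset defining genes; Ckmt2, Cox8b and the isoforms beside each member were named after their values were seen. Of 16 skeletal muscle genes 15 had a row.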

Additional observations from a re-analysis of the deposited data

How the results depend on the processing

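Over 17 alternatives, 135 of the 167 fold changes with an adjusted p kept their direction and their side of the threshold, 31 turned direction and 1, Actc1 in DESeq2 with the replicate block (-0.94), newly passed. DESeq2 gave Myl7 -0.46 with no p. The count of genes higher in Foxp1-deficient libraries, 0 in edgeR, was 6 in DESeq2, 113 in DESeq2 with the block, 180 in limma-voom with the block and 28 in edgeR with the block without the libraries numbered 2. The count of lower genes was 56, 64 and 2 in those last 3 settings. The number of members called was 1 in DESeq2 with the block and 0 in the other 16. Myl2 was 1.07 in limma-voom, 0.17, 0.19 and 0.21 with the block in edgeR, DESeq2 and limma-voom, and 0.11 without the libraries numbered 2 or 0.55 with the block as well. Without those libraries Tnni3 was 0.21, Myh7 0.065 and Ttn 1.36, or 0.26, 0.38 and 1.19 with the block, and in limma-voom they were 0.57, 0.82 and 1.18. In limma-voom with the block Myh7 was 0.27 and Ttn 1.44. With 1 library left out in turn, the range was -2.58 to 0.59 for Actc1, -2.02 to 1.27 for Myl7, -0.33 to 0.57 for Myl4, -1.31 to 1.11 for Myl2, -1.48 to 0.66 for Tnni1, -2.13 to 0.55 for Tnni3, -0.46 to 0.55 for Myh6, -0.57 to 0.43 for Myh7, -1.76 to 0.78 for Ttn and -1.38 to -0.28 for Tnnt2. The cause of these changes was not tested. Tnnt2 kept a negative fold change in all 17. Scaled by TMM, chosen after seeing the data, the 20 group means of CPM moved by less than 1 SD. Leaving out the libraries numbered 2 was also chosen then. The control means fell without them from 1910.1 to 684 CPM for Myl7, 413 to 194 for Tnni1 and 665 to 448 for Tnnt2. They also fell from 25.9 to 11.4 for Myl2, 7.47 to 2.02 for Tnni3 and 5.99 to 3.18 for Ttn. The Foxp1-deficient means fell from 1348 to 582 for Myl7, 262 to 179 for Tnni1 and 21.3 to 12.8 for Myl2. The means of Actc1 rose from 429.9 to 539 in controls and from 270.2 to 375 in the Foxp1-deficient group. In that group Ttn also rose from 5.60 to 8.40, Myh6 from 19.1 to 24.7 and Myh7 from 7.17 to 9.20. In edgeR with all 6 libraries the replicate block changed no call. The stricter filter, at least 5 CPM in 3 libraries, left out 2 of the 10 genes. Depth limits Ttn, Tnni3 and Myh7 most, which had 0 to 244 counts in a library.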

Other observations

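The non-muscle actomyosin genes gave a level against which the sarcomere genes can be read. Actb had 3202 to 6093 CPM and Actg1 1375 to 4914 CPM over the 6 libraries. Myl6 had 824, 3614 and 896 CPM across controls 1 to 3, and 660.0, 2957 and 693 CPM across Foxp1-deficient libraries 1 to 3, with its highest values in the libraries numbered 2, as in Myl7. Per length, Myl7 and Myl6 covered overlapping ranges, 2034 to 9408 and 2604 to 6914 TPM. Among 11 such genes, 4 had a higher and 7 a lower level in the Foxp1-deficient group, the median log2 fold change being -0.14, and 0 passed the edgeR quasi-likelihood test.

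Of 11 mesothelial genes 10 had a higher level in the Foxp1-deficient group, the median log2 fold change being 1.01, and 0 passed the same test. Of all 14311 genes tested 7675 were higher, with a median of 0.03. Among the 10 sarcomere genes 8 were lower. Genes of a list share the same libraries, and these counts have no test of their own. The summed level of the mesothelial genes was 2745, 3178 and 2819 CPM across controls 1 to 3, and 4129.6, 7908 and 5232 CPM across Foxp1-deficient libraries 1 to 3.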
